A study of Mus musculus with 10 samples.

Results

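Adiponectin, leptin, resistin and the proteins that receive or relay the adiponectin and leptin signals were followed in the inflamed mouse colon. The genes were chosen by name: the hormones Adipoq, Lep, Retn and Cfd and, on the receptor side, Adipor1, Adipor2, Cdh13, Appl1 and Lepr. Of these 9 genes 8 were measured, out of 19505 genes with a named probe set, each by 1 probe set, and Cfd is not analysed here. The arrays held total RNA of complete colon tissue from wild-type C57BL/6 mice with colitis induced by dextran sulfate sodium (DSS) at 3% in the water they drank and an intraperitoneal antibody against the checkpoint receptor PD1. In 5 ECP arrays the mice had also received donor cells treated by extracorporeal photopheresis (ECP), a procedure that treats leukocytes outside the body with a light-activated drug and ultraviolet A. The 5 control arrays came from mice with the same colitis and no such cells. Every mouse in both groups therefore had DSS and anti-PD1, and no uninflamed colon was analysed here. The age and sex of the animals and the source of the donor cells were not found in the labels, nor was it stated that each array is a separate animal. Errors and p-values therefore describe the spread between these 10 samples, which may be technical.

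Adiponectin is a collagen-like hormone of fat cells that acts through the membrane receptors AdipoR1 and AdipoR2, with the adaptor APPL1 on their cytoplasmic side, and its large multimers bind T-cadherin, the product of Cdh13. Leptin, also made by fat cells, binds the cytokine-type receptor encoded by Lepr, which signals through JAK2 and STAT3 and is restrained by SOCS3. Resistin is a small cysteine-rich protein that in mice is made by fat cells. The colon wall carries fat on its outer, mesenteric side, while the adiponectin receptors are expressed in many tissues, epithelium included.

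The hormone genes are known targets of fat cell transcription factors, and their upstream sequences are shown as background. No link between these sequences and the array values was tested. The 250 bases before the annotated start were read from RefSeq, build GRCm38.p6, where 6 of the 8 measured genes had an entry. Capitals mark matches, on either strand, to CCAAT (the CCAAT box), TTGCGCAA (the palindromic site of C/EBP factors), AGGTCA (a nuclear receptor half-site) or TATAA (the core of a TATA box). Adipoq lies at chr16:23146286-23146535, Lep at chr6:29059971-29060220 and Retn at chr8:3655520-3655769, all 3 on the plus strand.
Adipoq: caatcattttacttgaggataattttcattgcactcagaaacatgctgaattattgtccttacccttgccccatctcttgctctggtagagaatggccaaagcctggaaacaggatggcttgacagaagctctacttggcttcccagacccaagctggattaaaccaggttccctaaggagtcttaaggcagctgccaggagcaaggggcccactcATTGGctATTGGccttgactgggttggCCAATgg
Lep: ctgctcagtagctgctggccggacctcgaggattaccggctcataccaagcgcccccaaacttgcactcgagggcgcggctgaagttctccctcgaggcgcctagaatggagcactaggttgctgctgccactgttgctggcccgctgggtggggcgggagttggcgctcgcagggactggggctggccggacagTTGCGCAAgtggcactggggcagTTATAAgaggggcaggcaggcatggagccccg
Retn: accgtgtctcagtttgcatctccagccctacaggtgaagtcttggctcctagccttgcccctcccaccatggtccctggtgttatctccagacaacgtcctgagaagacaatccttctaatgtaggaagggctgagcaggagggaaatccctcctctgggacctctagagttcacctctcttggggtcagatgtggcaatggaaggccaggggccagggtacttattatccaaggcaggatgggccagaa
The Adipoq window held CCAAT matches at 3 places, from -34 to -30, -27 to -23 and -7 to -3, counted back from the start, and 33.9% of the 32851 upstream windows in the table hold at least 1. The Lep window held TTGCGCAA from -55 to -48, which occurs in 54 of the 32851 windows (0.164%), and a TATAA on each strand, overlapping, between -32 and -27 (22.8% of windows hold 1). The Retn window held none of the 4 motifs, nor did those of Adipoq and Lep hold AGGTCA (14.0% of windows). Adipor1 and Lepr had 2 windows each, and the 1 match in each gene was a CCAAT in the first window. The window of Adipor2 had none. These matches are letters in a window, and nothing was measured on binding.

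None of the 8 genes differed between the groups past the threshold. With limma and Benjamini-Hochberg adjustment over all genes, 0 of 8 had an adjusted p under 0.05, which was also the share among all genes (0 of 19505, 0%), and 0 of 8 had an unadjusted p under 0.05, against 991 of 19505 genes (5.08%). The 3 hormones had positive differences (ECP minus control) with a median of 0.42 on the log2 scale. The 5 receptor-side genes had 2 positive and 3 negative differences with a median of -0.00395, and the median over all genes was 0.00779. No member had groups without overlap, as 1.22% of all genes did.

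Adipoq, which encodes adiponectin, had log2 intensities of 8.01, 6.20, 7.88, 7.83 and 7.99 in ECP replicates 1 to 5, against 6.94, 7.36, 6.73, 7.40 and 4.77 in control replicates 1 to 5. ECP replicates 1, 3, 4 and 5 lay close together above every control array, ECP replicate 2 lay below all controls but replicate 5, and control replicate 5 was by far the lowest of the 10. The difference was 0.94 with SE 0.49, that is 1.92-fold with a 95% interval of 0.910 to 4.07-fold (limma adjusted p = 0.998). Adipoq exceeded 99.8% of all genes in the size of its difference and 99.7% in its spread within groups. Without control replicate 5 the difference was 0.48, and without ECP replicate 2 it was 1.29.

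Retn, the gene of resistin, had 6.17, 5.45, 6.22, 6.20 and 6.18 in ECP replicates 1 to 5, against 5.39, 5.82, 5.96, 6.16 and 4.79 in control replicates 1 to 5. The same 4 ECP arrays were above all controls, though only just above control replicate 4, and ECP replicate 2 and control replicate 5 were again the lowest of their groups. The difference was 0.42 with SE 0.24, or 1.34-fold with a 95% interval of 0.928 to 1.92-fold (limma adjusted p = 0.998). Without control replicate 5 it was 0.21.

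Lep, the leptin gene, had 5.10, 4.48, 5.10, 5.12 and 5.07 in ECP replicates 1 to 5, against 4.83, 4.69, 4.92, 4.44 and 4.70 in control replicates 1 to 5. Here too 4 ECP arrays stood above all controls. ECP replicate 2 lay below every control but replicate 4, which was the lowest of the 10, and control replicate 5 was in the middle of its group. The difference was 0.26 with SE 0.13, or 1.20-fold with a 95% interval of 0.981 to 1.46-fold (limma adjusted p = 0.998), and 0.38 without ECP replicate 2 (adjusted p = 0.479). The Lep signal was dim, with a mean of 4.84 in a table whose lowest quartile of genes ended at 5.25 and detection calls are not used here.

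The arrangement shared by the 3 hormones, with 4 ECP arrays above all 5 controls and ECP replicate 2 not, was found in 68 of 19505 genes (0.349%), and 440 genes (2.26%) had at least 4 ECP arrays above all controls. This arrangement was picked out after the values were seen and the 3 genes are not independent of each other, so it is a description of these arrays. In bulk tissue, a change in the number of fat cells and a change in hormone mRNA per fat cell cannot be told apart, in either direction.

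**Figure D1:**
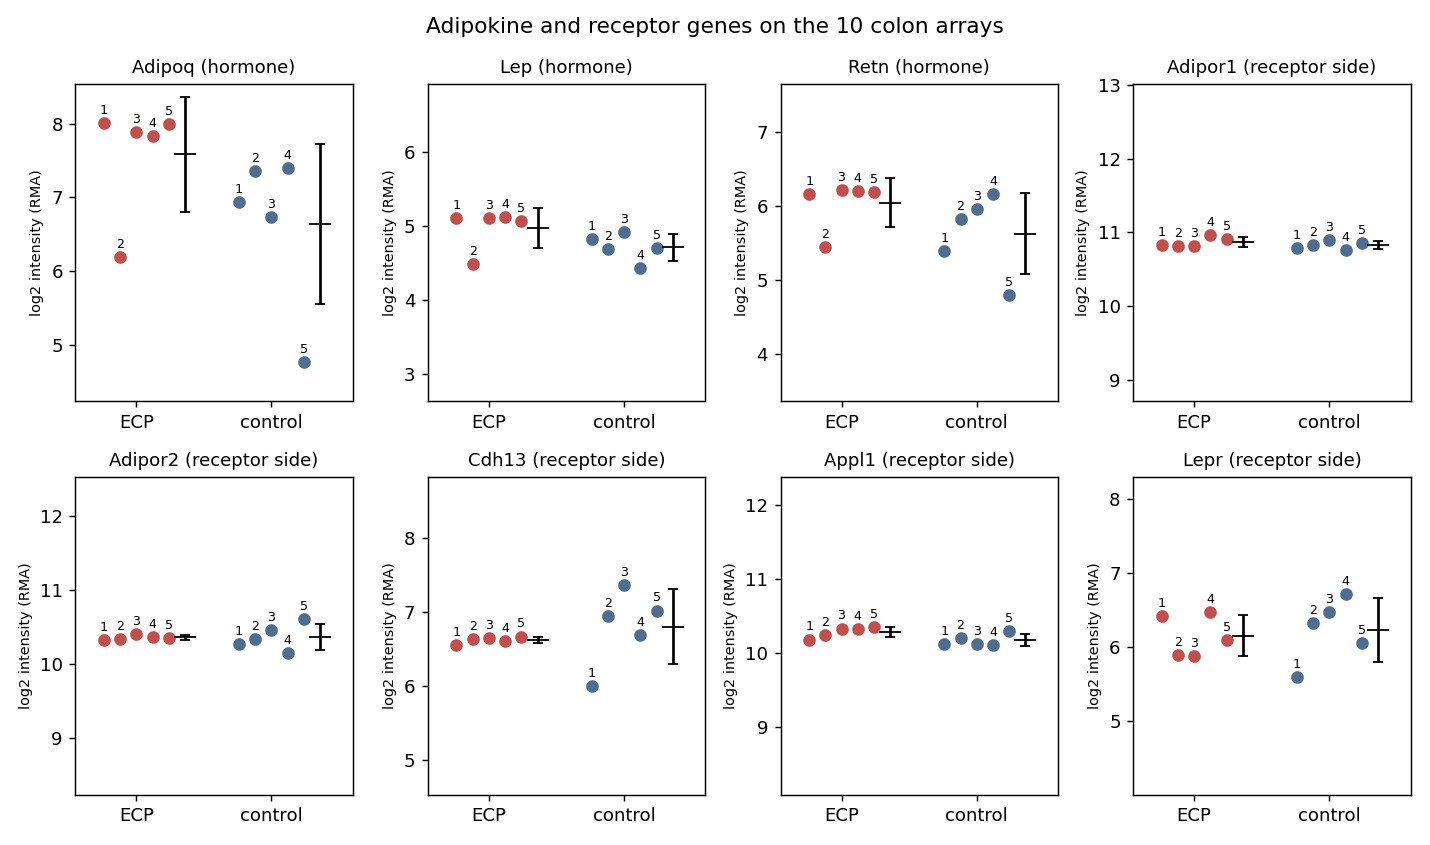
Log2 RMA intensity (y axis, each panel spanning the same number of log2 units) of the 8 measured genes on the 5 ECP and 5 control arrays; points carry replicate numbers, and the black marks show the mean and SD of each group (n = 5). In Adipoq, Lep and Retn ECP replicate 2 lies far below the other 4 ECP arrays, while the Adipor1 and Appl1 points lie almost level.

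Of the genes of the adiponectin receptors, Adipor1 was nearly level across all arrays and Adipor2 across the ECP arrays only. The SD of Adipor2 was 0.0317 over the ECP arrays and 0.177 over the controls. Adipor1 had 10.84, 10.82, 10.82, 10.97 and 10.91 in ECP replicates 1 to 5, against 10.79, 10.83, 10.90, 10.76 and 10.85 in control replicates 1 to 5. The ranges overlapped over most of their length, and the difference of 0.04 (SE 0.06) had an interval of 0.941 to 1.13-fold. Adipor2 had 10.33, 10.33, 10.41, 10.37 and 10.35 in ECP replicates 1 to 5, against 10.26, 10.33, 10.46, 10.15 and 10.61 in control replicates 1 to 5. The ECP arrays all fell inside the control range, and the difference of -0.00395 (SE 0.08) had an interval of 0.879 to 1.13-fold. ECP replicate 2 and control replicate 5, low in Adipoq and Retn, were inside the range of the other arrays in Adipor1, and control replicate 5 had the highest Adipor2 value of the 10.

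Appl1, which encodes the adaptor that binds both adiponectin receptors, had 10.18, 10.25, 10.33, 10.32 and 10.35 in ECP replicates 1 to 5, against 10.13, 10.21, 10.12, 10.11 and 10.30 in control replicates 1 to 5. All 5 ECP arrays were above the control median, and 3 were above every control. The difference was 0.11 (SE 0.06), or 1.08-fold with an interval of 0.982 to 1.19-fold (limma adjusted p = 0.998), and it ranged from 0.10 to 0.15 when 1 array was left out.

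Cdh13, the gene of the adiponectin-binding T-cadherin found on vessels and muscle, had 6.55, 6.63, 6.65, 6.61 and 6.67 in ECP replicates 1 to 5, against 6.00, 6.94, 7.36, 6.69 and 7.02 in control replicates 1 to 5. The ECP arrays spanned 0.118 log2 units and the controls 1.37, with 1 control below all ECP arrays and 4 above. All 5 ECP arrays were below the control median, as in 9.51% of all genes. The SD was 0.0447 over the ECP arrays and 0.511 over the controls, a ratio of 0.0876, and 47 of 19505 genes (0.241%) had an ECP SD under 0.1 times the control SD. That cutoff was not planned and lies just above the Cdh13 ratio, the lowest of the 8 members, so the share is only a description. An ECP SD below the control SD was itself the commoner case, in 6 of 8 members and 65.8% of all genes. The means differed by -0.18 with SE 0.20 and a 95% interval of 0.656 to 1.19-fold (limma adjusted p = 0.998). Leaving out control replicate 1 gave -0.38 (adjusted p = 0.658), and leaving out control replicate 3 gave -0.0395. Control replicate 1 also had the lowest level of the smooth muscle markers (9.23, against 9.60 to 10.12 in the other controls and 9.75 to 10.33 in the ECP arrays) and of the endothelial markers (7.27, against 7.56 to 8.01 and 7.58 to 7.85). The part of these cells in the Cdh13 values was not tested.

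Lepr, the leptin receptor gene, had 6.42, 5.90, 5.88, 6.47 and 6.10 in ECP replicates 1 to 5, against 5.59, 6.32, 6.47, 6.72 and 6.05 in control replicates 1 to 5. Both groups were spread widely and the ECP range lay within that of the controls. The difference was -0.08 (SE 0.20), with an interval of 0.704 to 1.28-fold (limma adjusted p = 1.000), and it was 0.05 without control replicate 4 and -0.24 without control replicate 1. Control replicate 5, the lowest array in Adipoq and Retn, was above control replicate 1 and ECP replicates 2 and 3 in Lepr.

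**Figure D2:**
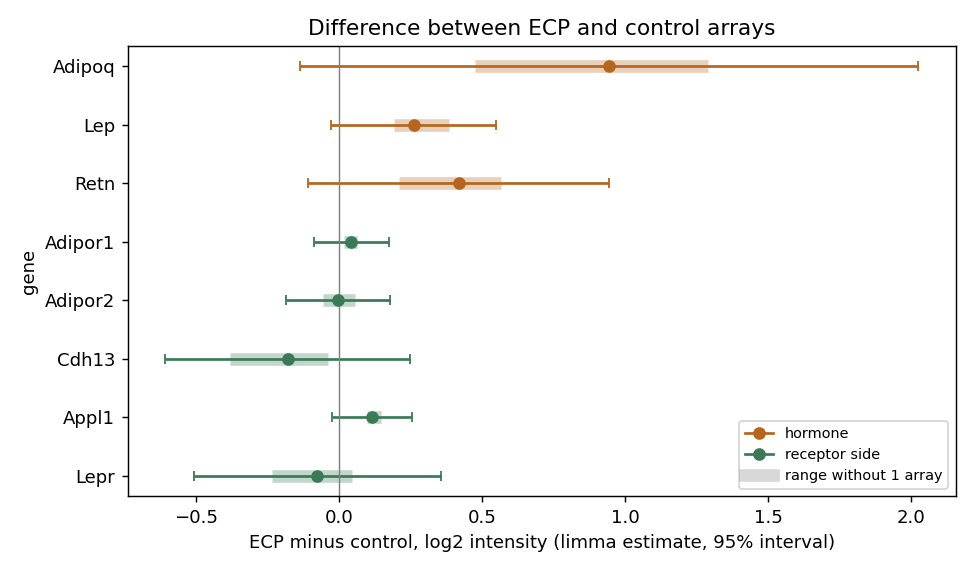
Difference between ECP and control arrays in log2 intensity (x axis) for each gene, with points at the limma estimate, thin bars for the 95% interval and broad pale bars for the range when 1 array was left out. All 8 intervals include 0, and the hormone intervals are centred to the right of it, with Adipoq at 0.94, Retn at 0.42 and Lep at 0.26.

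Averaged within arrays, the hormones spanned a wider range than the receptor side, a span carried by Adipoq and Retn. The mean deviation of the 3 hormones from their own averages was 0.50, -0.55, 0.47, 0.45 and 0.48 in ECP replicates 1 to 5, against -0.21, 0.03, -0.06, 0.07 and -1.18 in control replicates 1 to 5. The same measure for the 5 receptor-side genes was -0.00412, -0.08, -0.05, 0.08 and 0.00816 in ECP replicates 1 to 5, against -0.32, 0.06, 0.19, 0.02 and 0.10 in control replicates 1 to 5. The span over the 10 arrays was 1.67 for the hormones and 0.510 for the receptor side, whose low point was control replicate 1 and not one of the arrays low in hormones. The median SD of the hormones was 0.333 over the ECP arrays and 0.544 over the controls. For the receptor side it was 0.0672 (ECP) and 0.177 (control), and over all genes 0.129 (ECP) and 0.160 (control). The spread was uneven within both sets. In pooled SD, Adipoq exceeded 99.7% of all genes and Retn 97.6%, while Lep exceeded 83.4% and so lay below Cdh13 (95.8%) and Lepr (95.9%). Adipor1 exceeded 2.97% and Appl1 6.82%.

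**Figure D3:**
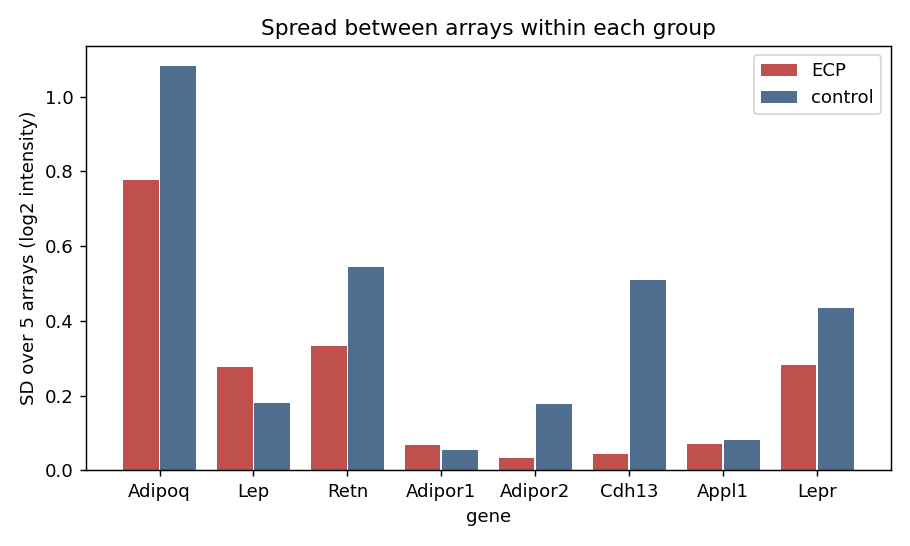
SD over the 5 arrays of each group (y axis, log2 intensity) for the 8 genes, ECP and control side by side. Adipoq has the tallest bars (0.778 in ECP and 1.08 in control), and Cdh13 and Adipor2 have short ECP bars beside taller control bars.

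Of the 28 pairs among the 8 genes, Adipoq and Retn was the 1 pair whose levels passed the adjusted threshold for Pearson's r. Over the 10 arrays r was 0.929 (permutation p = 0.00086, adjusted over 28 pairs p = 0.0241) and Spearman's rho was 0.830 (permutation p = 0.00477, adjusted p = 0.134). All correlations here take both groups together without removing the group means, so differences between the groups enter r and its p. Without the 2 arrays farthest from the Adipoq median, ECP replicate 2 and control replicate 5, r was 0.714. On the arrays that remain, the receptor-side gene Appl1 was as close to Adipoq, with r = 0.763, against 0.0613 over all 10. That Adipoq varies with other fat cell genes was known from earlier results of these arrays when the genes were chosen. Lep followed Adipoq less closely (r = 0.555, permutation p = 0.0869, adjusted p = 0.429, rho = 0.624, permutation p = 0.0602). Without those 2 arrays r was 0.523, and whether Lep and Retn differ in their r to Adipoq was not tested. Lep and Retn had r = 0.483 (permutation p = 0.156) and rho = 0.661 (permutation p = 0.0444, adjusted p = 0.454). Without ECP replicate 2 and control replicate 4, farthest from the Lep median, their r was 0.813. Pairs of a hormone and a receptor-side gene reached similar sizes. Lep and Adipor1 had r = 0.611 (permutation p = 0.0605), and Adipoq and Adipor2 had r = -0.578 (permutation p = 0.0992). Adipor1 and Adipor2 had r = 0.469 (permutation p = 0.169, adjusted p = 0.429) and rho = 0.612 (permutation p = 0.0679), and r = 0.769 without ECP replicates 4 and 5, which are farthest from the Adipor1 median.

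The genes most like Adipoq by Pearson's r over the 10 arrays were Car3 (0.979), Fabp4 (0.947), Retn (0.929), Gm16833 (0.911) and Nlrp1c-ps (0.909). Car3 encodes a carbonic anhydrase abundant in fat and muscle, and Fabp4 the fatty acid binding protein of fat cells. The list for Retn also held Car3 (0.967), Adipoq and Fabp4 (0.916), followed by Ptk7 (0.904) and Casp12 (0.897). Car3 had 9.08, 6.95, 9.03, 8.95 and 9.05 in ECP replicates 1 to 5, against 7.59, 8.47, 8.11, 8.60 and 5.99 in control replicates 1 to 5, so that the same 4 ECP arrays were above all controls and the same 2 arrays were lowest. The genes most like Lep were others, namely Atat1 (0.912), Slc9b1 (0.880), Mov10 (0.879), Ergic3 (0.863) and Klra7 (0.852), and among the fat cell markers the nearest to Lep was Cebpa at rank 629. With 10 arrays and all other named genes as candidates, the highest r of any gene is large by selection.

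Adipor1 was closest to Trpv4, Nucb1, Aldh1b1, Mcpt9 and Dupd1 (r from 0.914 to 0.928), and Adipor2 to Vsig2, Cth, Ptger4, Rasgef1b and Ckm (0.937 to 0.963). Cdh13 was closest to Pdcd4, Afap1, S100pbp, Tmem87a and Scn10a (0.938 to 0.967), Appl1 to Gm2381, Panx1, Ncoa7, Aco1 and Tfam (0.924 to 0.939), and Lepr to Tcf4, Grn, Cxcl12, Dchs1 and Zdhhc7 (0.942 to 0.960). None of these 25 genes was a hormone of the set or a listed fat cell marker, but the marker Pparg came close behind at rank 7 for Appl1 (r = 0.921).

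**Figure D4:**
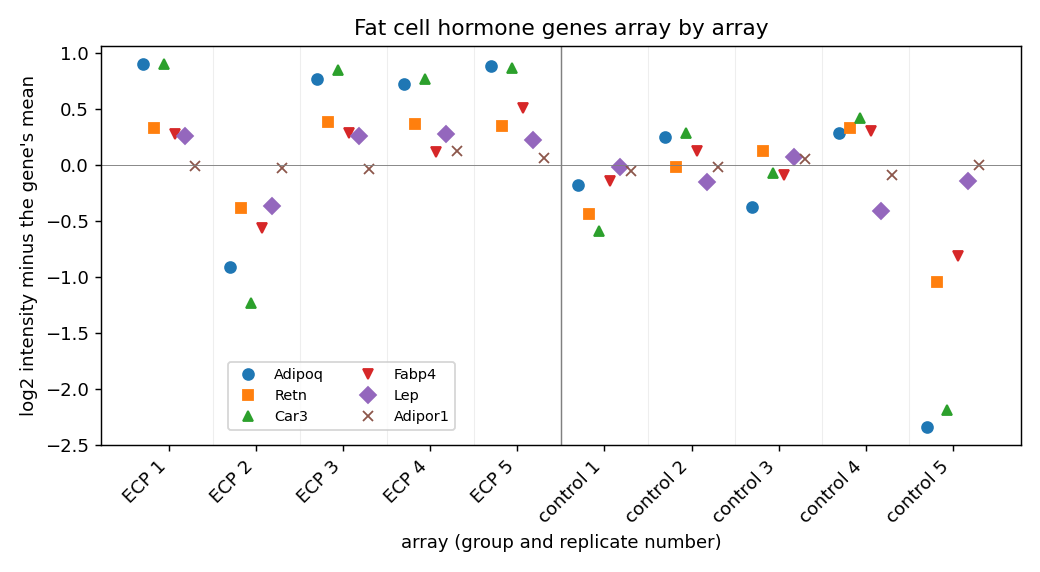
Log2 intensity minus the gene's mean over the 10 arrays (y axis) for Adipoq, Retn, Car3, Fabp4, Lep and Adipor1 on each array (x axis, ECP left of the line). Adipoq, Retn, Car3 and Fabp4 are lowest on control replicate 5, where Lep (4.70) is in the middle of its group, and Adipor1 stays close to 0 on every array.

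The fat cell markers were measured beside the hormones. Their mean level over 20 measured genes ran from 7.14 to 7.54 over the ECP arrays and from 7.12 to 7.38 over the controls, with ECP replicate 2 and control replicate 5 the lowest of their groups. In the ECP arrays 13 of the 20 markers were higher and 7 lower, 0 passed the adjusted threshold and the median difference was 0.06. Fabp4 had 9.19, 8.35, 9.20, 9.04 and 9.43 in ECP replicates 1 to 5, against 8.77, 9.04, 8.83, 9.22 and 8.10 in control replicates 1 to 5. Plin1, the lipid droplet coat protein of fat cells, followed Adipoq less (r = 0.632) and had a difference of 0.05 (SE 0.15), while Cidec, another droplet protein, had 0.23 (SE 0.13). Over the 20 markers r to Adipoq ran from -0.432 for Tmem26 to 0.979 for Car3. It was close to 0 for Aqp7 (-0.00892) and Acvr1c (0.00936), so the list did not follow Adipoq as a whole. In 3 of the 20 markers the unadjusted limma p was under 0.05, with 2 higher and 1 lower, against 5.08% of all genes (991 of 19505). Pparg, a regulator of fat cell differentiation also expressed in colon epithelium, had a difference of 0.37 (limma adjusted p = 0.707). Slc2a4, an insulin-regulated glucose transporter, had 0.32 (limma adjusted p = 0.956), and Ucp1, the marker of brown fat, had -0.22 (limma adjusted p = 0.950). Ucp1 ran against the hormones and was dim on every array, between 3.84 and 4.38. With the mean of the 20 markers as a covariate the differences were 0.35 for Adipoq, 0.13 for Retn and 0.14 for Lep (limma adjusted p = 1.000 for each), against 0.94, 0.42 and 0.26 without it. That mean contains Car3 and Fabp4, the genes closest to Adipoq on these same arrays, so a smaller difference is partly built in. The part of fat content in the hormone values was not tested. Among the markers of other cells, those of smooth muscle had positive differences in 10 of 10 genes with a median of 0.29. Those of mesothelium, the cell layer that covers the outer colon wall and its fat, did in 7 of 7 genes with a median of 0.12. Positive differences were also found in 9 of 12 epithelial, 4 of 8 endothelial and 4 of 6 macrophage markers, with medians of 0.02, 0.00294 and 0.10. B cell markers were positive in 0 of 6 genes (median -0.38) and pancreatic acinar markers in 0 of 10 (median -2.07). Over all genes 53.3% had a higher mean in the ECP arrays. In each of these lists 0 genes passed the threshold, and the part of these cells in the hormone values was not tested.

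The 12 epithelial markers were bright on every array, with a mean level of 12.12 to 12.22 over the ECP arrays and 11.94 to 12.23 over the controls. Pancreatic acinar markers were at 5.50 to 5.71 in the ECP arrays and at 9.87, 5.78, 5.66, 11.55 and 6.51 in control replicates 1 to 5, and B cell markers were at 8.67 in control replicate 4 against 6.22 to 6.40 in the other controls. A fit that left out control replicates 1 and 4, added once the values had been seen, gave differences of 1.30 for Adipoq, 0.52 for Retn, 0.21 for Lep, -0.49 for Cdh13 and -0.11 for Adipor2, and still 0 of 8 genes passed (limma adjusted p from 0.405 for Cdh13 to 0.990 for Adipor1).

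Genes that act downstream of or beside these hormones were summarised by list. In adiponectin signalling and secretion 0 of 18 measured genes passed the threshold, with 14 higher and 4 lower and a median difference of 0.05, against 53.3% of all genes with a higher mean in the ECP arrays and a median of 0.00779. The smallest p-values there belonged to Paqr3, a Golgi relative of the adiponectin receptors (-0.15, SE 0.08), Ero1a, an oxidase of the endoplasmic reticulum that helps adiponectin to assemble (0.17, SE 0.11), and the deacetylase gene Sirt1 (-0.14, SE 0.09). Among 11 relatives of adiponectin in the C1q/TNF family 0 passed and 8 were higher, with C1qtnf1 at 0.19 (SE 0.09), C1qtnf4 at 0.11 (SE 0.08) and C1qtnf12 at -0.18 (SE 0.13).

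In leptin receptor signalling 0 of 16 genes passed, with 8 higher and 8 lower and a median of -0.00966. Socs3, the feedback inhibitor induced by STAT3, had 8.06, 7.94, 7.74, 7.87 and 7.55 in ECP replicates 1 to 5, against 8.30, 8.41, 8.07, 8.91 and 7.32 in control replicates 1 to 5. Here 4 controls lay above all ECP arrays, replicate 3 only just, and control replicate 5 was the lowest of the 10. The fit gave -0.37 with SE 0.23 (limma adjusted p = 0.998). The adaptor gene Sh2b1 was at -0.12 (SE 0.09) and the insulin receptor substrate gene Irs1 at -0.22 (SE 0.16). Jak2 and Stat3, named here after their values were seen, were at 0.03 (SE 0.07) and 0.000784 (SE 0.10).

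Of 5 genes of the resistin family and its proposed receptors 0 passed, 3 were higher and 2 lower. Retnlb, a resistin relative made by goblet cells, was at 0.16 (SE 0.11), and Cap1, a cytoskeletal protein known as a resistin receptor in human monocytes, was at 0.09 (SE 0.06). Retnlg, a relative found in mouse myeloid cells, ranged from 6.79 to 8.35 over the ECP arrays and from 6.67 to 9.98 over the controls, and its difference was -0.35 (SE 0.54) or 0.15 without control replicate 4. Of 10 genes of the alternative complement pathway, in which adipsin, the product of Cfd, cleaves factor B, 0 passed and 6 were higher. Cd46, a complement regulator, was at 0.27 (SE 0.11), C3ar1, the receptor for the C3a fragment, at 0.34 (SE 0.24), and Hc, the gene of complement component C5, at 0.10 (SE 0.12). Of 11 other hormones and secreted proteins of fat cells 0 passed and 8 were higher, with Nampt, an enzyme of NAD synthesis also known as visfatin, at 0.23 (SE 0.09), the vessel growth factor gene Vegfa at 0.20 (SE 0.07) and the Wnt antagonist gene Sfrp5 at 0.19 (SE 0.09). The limma adjusted p of the named genes in these 6 lists was 0.862 for Vegfa and higher for all others.

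**Figure D5:**
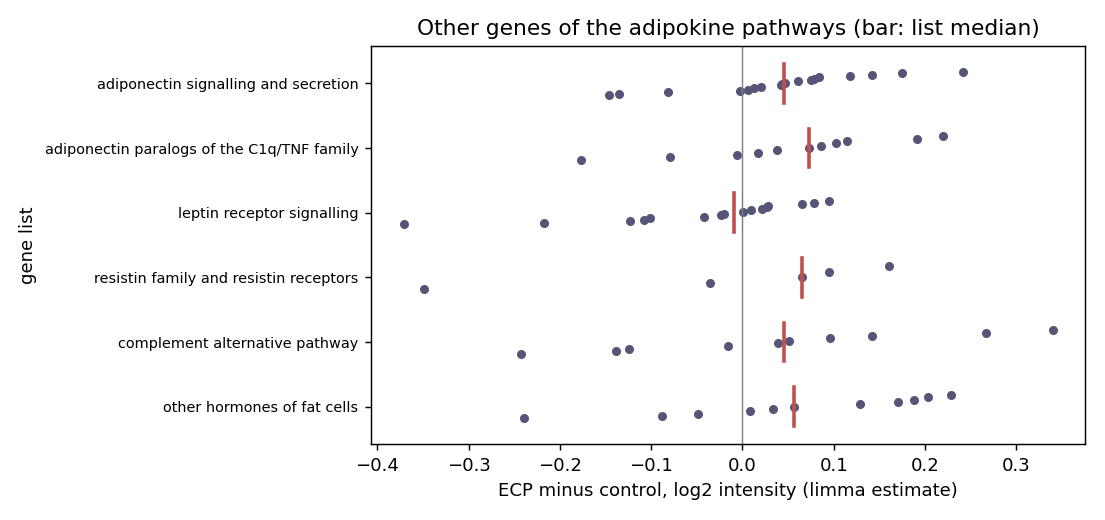
Difference between ECP and control arrays in log2 intensity (x axis) for each measured gene (points) of 6 lists around the adipokines, with a red bar at each list's median. The medians lie between -0.00966 and 0.07, and the leftmost points are Socs3 at -0.37 and Retnlg at -0.35.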

How the data were processed

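Total RNA of 10 colon samples was measured on single-colour arrays with biotin label, after extraction with the miRNeasy kit, per the labels' protocols. The deposited values are on a log2 scale. Per the submitters' processing notes the authors used oligo and RMA, with versions not given in the sources used here. RMA corrects background, sets all arrays to a common distribution and summarises probes, which hides a shift common to most genes. The table held 22203 probe sets with values from 2.81 to 13.6 and array medians from 6.94 to 6.98, and pairwise correlations between arrays were 0.977 to 0.996. The platform annotation named 19572 probe sets and left 2631 unnamed here, and the probe set with the highest mean was kept for each of 19505 genes. For arrays, their number limits the precision.

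Groups and replicate numbers came from the sample titles. Genes were compared with limma 3.58.1 in R 4.3.3 (lmFit, eBayes, two-sided, no covariate), as ECP minus control, with a threshold of 0.05 on p-values adjusted over all genes (Benjamini-Hochberg). The fit was also run on simulated normal values, drawn independently with the same SD in both groups for each gene. The measured groups often differed in SD and had outlying arrays, which that run does not cover. Correlations between members used 100000 permutations. Named genes are the 8 measured members, the 3 genes with the smallest p in each pathway list and the 5 genes with the highest r to each member. Outside this rule stand Jak2, Stat3 and the fat cell markers Plin1, Cidec, Pparg, Slc2a4, Ucp1, Tmem26, Aqp7, Acvr1c and Cebpa. The members and lists were chosen with earlier results of these data known, so no list was tested as a set. Same-numbered arrays of the groups did not deviate together (r from -0.244 to 0.0761), so the numbers were not used as pairs. Alternatives were other scaling, filters, probe set rule, variance options, weights, covariates and left-out arrays.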

Additional observations from a re-analysis of the deposited data

Results flagged for a closer look

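The 8 members, the named pathway genes, 7 of the fat cell markers named in the text and the cell type marker levels were examined. Among these 82 groups of 5 arrays, 7 had 1 array at the edge whose gap to the nearest other array exceeded 0.71 times the whole range, which chance gives in about 1 of 20 groups. ECP replicate 2 was lowest in Adipoq (6.20, next 7.83), Lep (4.48, next 5.07), Retn (5.45, next 6.17) and Car3 (6.95, next 8.95) and highest in C1qtnf4 (7.05, next 6.73). Control replicate 5 was lowest in Adipoq (4.77, next 6.73). Control replicate 4 was highest in B cell markers (8.67, next 6.40).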

How the results depend on the processing

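No member passed the threshold under any of the 21 alternatives run, and Adipoq, Lep, Retn, Cdh13 and Appl1 kept their direction wherever they were tested. Without 1 array at a time the differences ran from 0.48 to 1.29 for Adipoq, from 0.19 to 0.38 for Lep, from 0.21 to 0.57 for Retn, from -0.38 to -0.0395 for Cdh13, from 0.10 to 0.15 for Appl1, from 0.02 to 0.06 for Adipor1, from -0.0565 to 0.0572 for Adipor2, from -0.24 to 0.0461 for Lepr, from -0.68 to 0.15 for Retnlg, from -0.0324 to 0.14 for Plin1, from 0.26 to 0.57 for the hormone median and from -0.0289 to 0.0493 for the receptor-side median. The count over all genes ran from 0 to 1 without 1 array (1 without control replicate 3), and was 1 with the lowest quartile of genes left out, 7 with genes below the median left out and 1 with trend and robust options, where fewer genes or another variance model entered the fit. With the fat cell level as covariate Adipor2 and the receptor-side median turned to 0.0184, Fabp4 to -0.0322 and Plin1 to -0.0893. Fabp4 and Plin1 are themselves part of that level. With the acinar level as covariate, chosen after seeing the data, Adipor1 turned to -0.000613 and Retnlg to 0.557. Without control replicates 1 and 4, also chosen after seeing the data, Retnlg turned to 0.41 and the receptor-side median was -0.11. The cause of these turns was not tested. With the replicate number as a block the differences stayed at 0.94 for Adipoq, 0.42 for Retn and 0.26 for Lep and 0 of 19505 genes were called. The filter on the lowest quartile left out Lep, so the hormone median has no value there, and the filter at the median also left out Retn, Cdh13 and Lepr, so neither median has one.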
